A study of Mus musculus with 18 samples.

Results

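The genes described here encode the main proteins of the basement membrane and 2 matrix proteins found beside it: the laminin chains Lama1, Lama5, Lamb1 and Lamc1, the collagen IV chains Col4a1 and Col4a2, the linker proteins Nid1 (nidogen) and Hspg2 (perlecan), fibronectin (Fn1) and Sparc. These 10 genes, called the members here, were chosen by symbol, through the Ensembl identifiers of the count table, and all were found among its 46078 genes and passed the filter on low counts. The cells were E14, an established line of mouse embryonic stem cells (mESCs) labelled 129m wt, which spent 24 h in medium with serum and LIF, a cytokine that maintains pluripotency, on fibronectin-coated StemBond hydrogels, which are polyacrylamide gels made with the co-factor AHA (6-acrylamidohexanoic acid). AHA provides the points to which the coating is tethered, and its concentration was varied to change how strongly the coating is held. The 6 groups were soft gels (about 750 Pa) and stiff gels (about 160 kPa), and each stiffness came with AHA at 16 mM (low), at 48 mM (mid) and at 80 mM (high), with 3 libraries from total RNA in every group. All groups shared the cell line, the medium, the coating and the culture time.

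Basement membranes are thin sheets of extracellular matrix on which epithelial cells rest. Laminins are trimers of an α, a β and a γ chain that assemble first at the cell surface, and collagen IV forms a second, covalently linked network that nidogen and perlecan tie to the laminin layer. In the early mouse embryo laminin is deposited between the epiblast and the primitive endoderm, and embryonic stem cells in culture make laminin and collagen IV themselves. Fibronectin is bound by integrins and was also the protein coated on these gels, but only the RNA of the cells was measured here. Sparc is a secreted glycoprotein that binds collagens.

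The libraries held between 5850621 and 9290261 gene counts, and the members had between 525 and 8489 counts in the libraries kept. Replicate 1 of the soft, high AHA group had 1.37% of its counts in ERCC spike-in RNAs, against 0.607 to 0.725% in the other 17 libraries, and was set aside as the study set aside outliers of this kind. This left 8 soft and 9 stiff libraries. Replicate numbers were given in accession order within a group, only as names. The labels did not say that replicates came from separate cultures, so the p-values measure the spread between these libraries, which may be technical. The stem cell identity of the libraries was checked on 10 markers including Pou5f1, Sox2 and Nanog, all of which passed the filter, with summed levels of 2914 to 3114 CPM on soft gels and 2726 to 2876 CPM on stiff gels. Levels are given as CPM, the read count of a gene scaled to a common library size, here the TMM-adjusted total of the tested protein-coding genes.

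On soft gels Lama1 was higher, and Lama5, Lamb1, Col4a1, Col4a2, Hspg2 and Sparc were lower, than on stiff gels when the difference was averaged over the 3 AHA concentrations. Lamc1, Nid1 and Fn1 were not called. The largest difference was that of Lama1, at 0.33 ± 0.038 on the log2 scale (SE), or 26.1% higher on soft gels, and the largest decrease was that of Col4a2, at -0.28 ± 0.036. Here and throughout, called means an adjusted p under 0.05 in the quasi-likelihood test of edgeR, with Benjamini-Hochberg adjustment over the 13438 protein-coding genes tested. Of the 10 members, 6 were called lower on soft gels, where 4.82% of all tested genes were, and 1 was called higher, where 3.77% of all tested genes were. The members stood at percentiles 76.5 to 98.2 of the tested genes in level per kb, and smaller differences can be called at higher counts. They were also chosen with earlier results of these data known, so these shares are a reference and not a test of the set. The median log2 difference was -0.15 over the members and 0.0011 over all genes tested. These 7 members were called in each of the 26 alternative analyses, which included DESeq2 in place of edgeR, all 18 libraries, and each library left out.

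**Figure D1:**
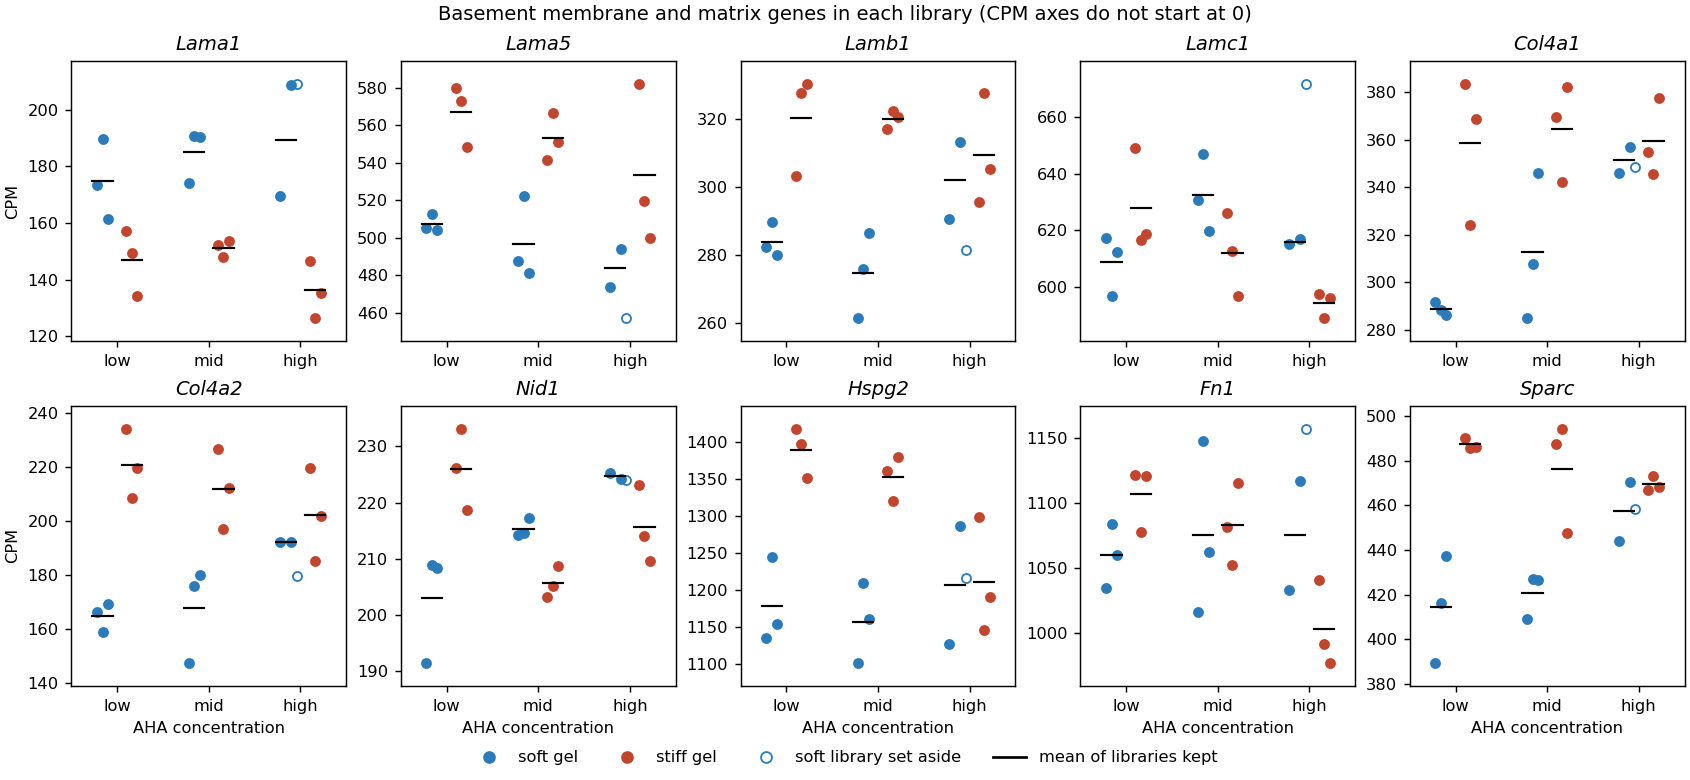
CPM of each of the 10 genes (vertical axes, not starting at 0) against AHA concentration, with a point for each library on soft (blue) and stiff (red) gels, an open circle for the soft library set aside and a bar for the mean of the libraries kept. All 8 soft libraries sit above all 9 stiff libraries for Lama1, and the soft libraries of Col4a1, Col4a2 and Sparc sit closest to the stiff libraries at high AHA.

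RefSeq (GRCm38.p6) gave promoter windows, of 250 bases before and 50 after its own start of a gene, for 7 of the 10 members. The windows of Col4a1 and Col4a2 lay wholly in annotated exons. That of Sparc lay inside the gene span used here, with 288 of its 300 bases in exons of Sparc, so that it does not hold the bases before that span. The windows of Lama5, Hspg2 and Lamb1, which were lower on soft gels, and of Nid1, which was not called, are shown up to the first annotated exon, 5′ to 3′ on the strand of the gene, with matches to the motifs searched in capitals. The motifs, each searched on both strands, were CCAAT (the CCAAT box), GGGCGG (the core of the GC box), GGAATG (bound by TEAD factors), TGANTCA (bound by AP-1), TATAAA (the TATA box) and the CArG box (bound by SRF).
Lama5 (chr2:180225860-180226109, - strand): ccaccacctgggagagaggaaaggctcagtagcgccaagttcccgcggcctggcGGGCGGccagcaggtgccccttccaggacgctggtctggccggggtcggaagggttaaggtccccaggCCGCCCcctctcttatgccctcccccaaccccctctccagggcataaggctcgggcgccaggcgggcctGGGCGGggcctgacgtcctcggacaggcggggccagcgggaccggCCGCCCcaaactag
Hspg2 (chr4:137468553-137468768, + strand): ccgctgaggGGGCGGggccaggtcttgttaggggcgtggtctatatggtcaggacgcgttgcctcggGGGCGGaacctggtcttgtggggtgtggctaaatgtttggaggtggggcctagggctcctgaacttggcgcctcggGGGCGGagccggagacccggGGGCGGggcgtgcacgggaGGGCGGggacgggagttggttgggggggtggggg
Lamb1 (chr12:31265043-31265233, + strand): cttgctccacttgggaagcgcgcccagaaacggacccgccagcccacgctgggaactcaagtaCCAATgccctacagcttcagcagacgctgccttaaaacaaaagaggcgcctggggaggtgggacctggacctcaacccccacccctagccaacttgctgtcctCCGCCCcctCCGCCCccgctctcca
Nid1 (chr13:13437352-13437550, + strand): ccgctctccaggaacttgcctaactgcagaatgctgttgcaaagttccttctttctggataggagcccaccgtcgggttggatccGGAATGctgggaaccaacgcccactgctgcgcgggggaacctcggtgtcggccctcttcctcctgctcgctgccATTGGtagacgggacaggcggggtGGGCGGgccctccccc
The 22 bases shared by the first exons of Col4a1 and Col4a2 are given on the + strand.
Col4a1 and Col4a2 (chr8:11312805-11312826, + strand): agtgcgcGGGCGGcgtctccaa

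In these windows GGGCGG occurred 4 times for Lama5, 5 times for Hspg2, 2 times for Lamb1, 3 times for Col4a2, and 1 time each for Col4a1 and Nid1, and was not found in the window of Sparc, which is largely exonic. Of all promoter windows of this length, 35.7% held at least 1 GGGCGG, 19.5% at least 2, 10.7% at least 3, 5.49% at least 4 and 2.71% at least 5. The shared bases of Col4a1 and Col4a2 held 1 GGGCGG, which counts in both windows. CCAAT was present 1 time in the windows of Lamb1, Nid1, Col4a1 and Col4a2, and in 37.4% of all windows. GGAATG was found for Nid1 only among the 7 members and in 14.7% of all windows. TGANTCA (7.81% of all windows), TATAAA (13.6%) and the CArG box (1.63%) were not found in the 7 members. A match is a run of letters and was not tested as a binding site.

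The genes of the laminin chains are described first. Lama1 (ENSMUSG00000032796, chr17:67697259-67822647 on GRCm38, + strand) encodes the α1 chain, the α chain of the laminin of the early embryo. It had 174, 189.7 and 161 CPM in the soft, low AHA libraries, 174, 191 and 190.4 CPM at mid AHA, and 169.6 and 209 CPM at high AHA. On stiff gels it had 157, 149 and 134 CPM at low, 152, 148 and 154 CPM at mid and 147, 126 and 135 CPM at high AHA. The lowest soft library, at low AHA, thus lay above the highest stiff library, also at low AHA, and the groups did not overlap at any AHA concentration. Of all tested genes, 0.394% had every soft library above every stiff library, and 0.871% had every soft library below. Within one AHA concentration such separation was common over all tested genes, with every soft library below every stiff library for 9.60% of them at low, 9.48% at mid and 12.4% at high AHA, and above for 8.65%, 8.50% and 12.3%. The library set aside had 209 CPM, the highest value of the 18. The log2 difference was 0.25 ± 0.064 at low (adjusted p = 0.00962), 0.29 ± 0.063 at mid (adjusted p = 0.00145) and 0.46 ± 0.071 at high AHA (adjusted p = 9.64e-06). At low AHA the call was lost without soft, low AHA replicate 2 (0.19, adjusted p = 0.177) or stiff, low AHA replicate 3 (0.19, adjusted p = 0.17), and at high AHA without soft, high AHA replicate 3 (0.31, adjusted p = 0.0641).

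Lama5 (ENSMUSG00000015647, chr2:180176373-180225859, - strand) encodes the α5 chain, which is found in most adult basement membranes and in the laminin on which pluripotent cells are often cultured. Its soft libraries had 505, 513 and 504 CPM at low, 488, 522 and 481 CPM at mid and 474 and 494 CPM at high AHA. The stiff libraries had 580.1, 573 and 548 CPM at low, 541, 567 and 551 CPM at mid and 582, 519.6 and 499.7 CPM at high AHA. At each AHA concentration every soft library was below every stiff library of that concentration, as 9.48 to 12.4% of all tested genes were at one concentration, although the stiff, high AHA libraries reached down to the range of soft libraries at other concentrations. Averaged over AHA, the log2 difference of Lama5 was -0.15 ± 0.025 (adjusted p = 1.10e-06). It was called at low (-0.16 ± 0.042, adjusted p = 0.011) and mid AHA (-0.16 ± 0.042, adjusted p = 0.0169), each time in 24 of 27 alternatives. The low AHA call was lost without soft, low AHA replicate 1 (adjusted p = 0.0599) or 3 (0.0662) or stiff, low AHA replicate 1 (0.113), and the mid AHA call without soft, mid AHA replicate 1 (0.134) or 3 (0.122) or stiff, mid AHA replicate 2 (0.16). At high AHA the difference of -0.14 ± 0.047 was not called (adjusted p = 0.143), but it was called with all 18 libraries (-0.17, adjusted p = 0.00904), the library set aside having 457 CPM, the lowest of the 18. Over all alternatives the high AHA difference of Lama5 ran from -0.20 to -0.074, and it was closest to 0 without stiff, high AHA replicate 1.

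Lamb1 (ENSMUSG00000002900, chr12:31265234-31329644, + strand) encodes the β1 chain. On soft gels the libraries had 282, 289 and 279.9 CPM at low, 261, 276 and 286 CPM at mid and 291 and 313 CPM at high AHA. On stiff gels they had 303, 327 and 330.1 CPM at low, 317, 322 and 320.4 CPM at mid and 295, 328 and 305 CPM at high AHA. Soft and stiff libraries were apart at low and mid AHA and overlapped at high AHA, where soft, high AHA replicate 3 exceeded a pair of the stiff libraries. Lamb1 differed by -0.14 ± 0.029 on the log2 scale in the average (adjusted p = 8.14e-05), with -0.17 ± 0.048 at low, -0.22 ± 0.047 at mid and -0.034 ± 0.053 at high AHA (adjusted p = 0.896). The high AHA value of Lamb1 was -0.11 with soft, high AHA replicate 3 set aside in place of replicate 1. It changed sign, to 0.012, without soft, high AHA replicate 2. The low AHA call of Lamb1 was lost without soft, low AHA replicate 1 (adjusted p = 0.0885) or 3 (0.105) or stiff, low AHA replicate 2 (0.0932) or 3 (0.175). In the library set aside Lamb1 was at 281 CPM, within the range of the soft, low AHA libraries.

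Lamc1 (ENSMUSG00000026478, chr1:153218922-153332786, - strand) encodes the γ1 chain, which most laminins share, and was among the members with no called difference. It ranged from 597 to 647 CPM in the soft libraries (median 617) and from 589 to 649 CPM in the stiff libraries (median 613). The averaged log2 difference was 0.018 ± 0.023, with a 95% interval of -0.029 to 0.064 (adjusted p = 0.745). The library set aside, at 671 CPM, was above the other 17.

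Because both chains of a pair are read in the same library, their ratio does not depend on scaling between libraries, and 4 ratios of counts per kb of exon were compared with a two-sided exact permutation test over the 8 soft and 9 stiff libraries, adjusted over the 4. The ratio of Lama1 to Lama5 was 0.431 ± 0.0369 on soft gels (SD, n = 8) and 0.309 ± 0.0163 on stiff gels (n = 9), with ranges of 0.377 to 0.497 and 0.286 to 0.331 that did not overlap. The difference was 0.48 on the log2 scale (exact permutation p = 4.11e-05, the smallest that this design can give, adjusted p = 8.23e-05). The ratio of Lama1 to Lamc1 was likewise apart, with 0.252 ± 0.0216 on soft and 0.202 ± 0.0121 on stiff gels and a log2 difference of 0.31 (adjusted p = 8.23e-05, exact permutation test). For Lamb1 to Lamc1 the ranges overlapped, and the ratio was lower on soft gels, at 0.384 ± 0.0250 against 0.432 ± 0.0221 (log2 difference -0.17, adjusted p = 0.00154, exact permutation test). Soft gels thus had more α1 transcript per α5 or γ1 transcript, and less β1 transcript per γ1 transcript, than stiff gels. The ratios reuse the counts of the members compared above, so they are not separate support for those differences. Libraries were permuted over all AHA concentrations together. In the library set aside the ratio of Lama1 to Lama5 was 0.538, the highest of the 18. The exon lengths merge all annotated transcripts, so the size of a ratio depends on the annotation. The log2 differences between soft and stiff gels do not, since the same lengths were used in every library.

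**Figure D2:**
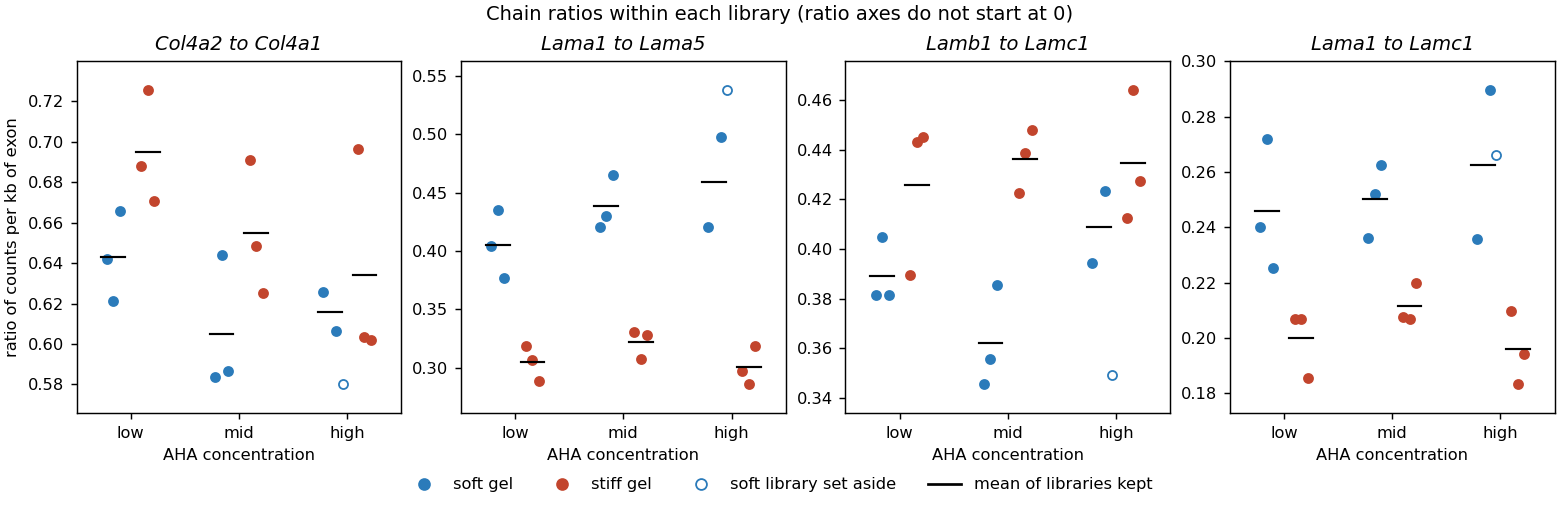
Ratio of counts per kb of exon (vertical axes, not starting at 0) for 4 pairs of genes against AHA concentration, with a point for each soft (blue) and stiff (red) library, an open circle for the library set aside and a bar for the mean of the libraries kept. The ratios of Lama1 to Lama5 and of Lama1 to Lamc1 separate all soft from all stiff libraries, whereas those of Col4a2 to Col4a1 and of Lamb1 to Lamc1 overlap.

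Collagen IV is the collagen of basement membranes, and its most widespread form combines the α1(IV) and α2(IV) chains. Col4a1 (ENSMUSG00000031502, chr8:11198423-11312826, - strand) and Col4a2 (ENSMUSG00000031503, chr8:11312805-11449287, + strand) lie head to head, and their first exons shared 22 bases on opposite strands in the annotation. Whether reads were counted by strand was not stated, but this overlap was 0.295% of the exon bases of Col4a1, and Col4a2 shared 0.982% of its exon bases with Col4a1 and the antisense gene Gm15419. Col4a1 had 292, 288 and 286 CPM in the soft libraries at low AHA, 285, 308 and 346 CPM at mid AHA and 346 and 357 CPM at high AHA. In the stiff libraries it had 383, 324 and 369 CPM at low, 369.8, 342 and 382 CPM at mid and 355, 346 and 378 CPM at high AHA. The soft, low AHA libraries were below all stiff libraries, soft, mid AHA replicate 3 reached the stiff range, and at high AHA soft and stiff libraries overlapped. For Col4a1 the averaged log2 difference was -0.19 ± 0.032 (adjusted p = 6.84e-06), with -0.32 ± 0.053 at low, -0.22 ± 0.052 at mid and -0.034 ± 0.058 at high AHA. At mid AHA the call of Col4a1 (adjusted p = 0.00702) was lost without soft, mid AHA replicate 1 (-0.15, adjusted p = 0.156) or 2 (adjusted p = 0.0605) and without stiff, mid AHA replicate 1 (adjusted p = 0.0653) or 3 (adjusted p = 0.0747).

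Col4a2 had the largest decrease of the members. Its soft libraries had 166, 159 and 169 CPM at low, 147, 176 and 179.9 CPM at mid and 192 and 192 CPM at high AHA. On stiff gels it was at 234, 208 and 219 CPM at low, 227, 197 and 212 CPM at mid and 219, 185 and 202 CPM at high AHA. Soft libraries were below stiff ones at low and mid AHA, and at high AHA stiff replicate 2 fell below both soft libraries. The log2 differences of Col4a2 were -0.43 ± 0.060 at low AHA (adjusted p = 6.41e-08), -0.33 ± 0.059 at mid AHA (adjusted p = 3.75e-05) and -0.080 ± 0.066 at high AHA (adjusted p = 0.746). The library set aside had 179 CPM of Col4a2 and 349 CPM of Col4a1. Per kb of exon the ratio of Col4a2 to Col4a1 was 0.622 ± 0.0289 on soft gels and 0.661 ± 0.0439 on stiff gels, with overlapping ranges, a log2 difference of -0.087 and an adjusted exact permutation p of 0.0492. That call was lost when medians were compared and when any of 11 libraries was left out.

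Of the proteins that link the laminin and collagen networks, perlecan was lower on soft gels and nidogen was not called. Hspg2 (ENSMUSG00000028763, chr4:137468769-137570630, + strand) encodes perlecan, a large heparan sulfate proteoglycan, and had the most GGGCGG matches of the 7 promoter windows. It had 1136, 1245 and 1153 CPM in the soft libraries at low, 1102, 1209 and 1160.1 CPM at mid and 1127 and 1286 CPM at high AHA. Stiff libraries had 1417, 1397 and 1351 CPM at low, 1360.1, 1319.7 and 1379.5 CPM at mid and 1298, 1146 and 1189.7 CPM at high AHA. The stiff libraries at low and mid AHA were above every soft library, whereas the stiff, high AHA libraries lay largely within the soft range. The averaged log2 difference of Hspg2 was -0.16 ± 0.026 (adjusted p = 1.25e-05), made up of -0.24 ± 0.042 at low, -0.23 ± 0.042 at mid and -0.0079 ± 0.047 at high AHA. The high AHA value of Hspg2 changed sign with the library left out, from -0.11 without soft, high AHA replicate 3 to 0.076 without soft, high AHA replicate 2. In the library set aside Hspg2 had 1216 CPM.

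Nid1 (ENSMUSG00000005397, chr13:13437551-13512269, + strand) encodes nidogen-1, which bridges laminin and collagen IV. It ranged from 192 to 225 CPM in soft (median 214) and from 203 to 233 CPM in stiff libraries (median 214). Every soft library was below every stiff library at low AHA, with 192, 209 and 208 against 226, 233 and 219 CPM, but above every stiff library at mid AHA, with 214, 215 and 217 against 203, 205 and 209 CPM, and again above at high AHA. Of all tested genes 9.60% were all lower at low AHA, 8.50% all higher at mid AHA and 12.3% all higher at high AHA. None of these differences was called, the log2 values being -0.15 ± 0.053 at low (adjusted p = 0.101) and 0.066 ± 0.052 at mid AHA (adjusted p = 0.651), and the averaged difference of Nid1 was -0.0091 (95% interval -0.071 to 0.053). Some 2.06% of its exon bases lay opposite an exon of another gene.

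Fn1 (ENSMUSG00000026193, chr1:71585520-71653200, - strand), the gene of fibronectin, with 2.5% of its exon bases opposite an exon of another gene, was not called between soft and stiff gels. Its soft libraries ranged from 1016 to 1148 CPM (median 1061) and its stiff libraries from 977 to 1122 CPM (median 1078). Soft minus stiff, averaged over AHA, was 0.0084 ± 0.022 for Fn1 on the log2 scale (95% interval -0.035 to 0.052, adjusted p = 0.889). At high AHA the difference of 0.099 ± 0.041 was not called (adjusted p = 0.323), but with all 18 libraries it was 0.14 (adjusted p = 0.022), the library set aside having 1157 CPM, the highest of the 18, and without soft, high AHA replicate 3 it was 0.041. With soft, high AHA replicate 2 set aside in place of replicate 1 the difference was 0.18 (edgeR adjusted p = 0.00133).

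Sparc (ENSMUSG00000018593, chr11:55394500-55423183, - strand), the gene of the collagen-binding glycoprotein, was lower on soft gels. The soft libraries had 389.6, 416 and 437 CPM at low, 409, 427 and 427 CPM at mid and 444 and 471 CPM at high AHA. The stiff libraries had 490.4, 486 and 486 CPM at low, 488, 494 and 448 CPM at mid and 467, 473 and 468 CPM at high AHA. At low and mid AHA the groups did not overlap, and at high AHA soft replicate 3 lay within the stiff range. The averaged log2 difference of Sparc was -0.15 ± 0.026 (adjusted p = 2.43e-06), with -0.23 ± 0.043 at low (adjusted p = 3.84e-05), -0.18 ± 0.043 at mid (adjusted p = 0.00409) and -0.038 ± 0.048 at high AHA (adjusted p = 0.872). The mid AHA call of Sparc was lost without soft, mid AHA replicate 1 (adjusted p = 0.0773) or stiff, mid AHA replicate 1 (0.0527) or 2 (0.102). The library set aside had 458 CPM of Sparc.

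At each AHA concentration on its own, low and mid AHA gave calls for the same 7 members as the average, in the same directions, and high AHA gave a call for Lama1 only. At low AHA 6 of 10 members were called lower on soft gels and 1 higher, where 2.19% and 0.848% of all tested genes were. At mid AHA the counts were again 6 and 1, where 1.85% and 1.01% of all tested genes were called. At high AHA no member was called lower, 1 was called higher, and 0.432% and 0.409% of all tested genes were called. At an unadjusted p under 0.05, 3 members passed at high AHA in edgeR, as did 1405 of the 13438 genes tested, and DESeq2 also called 1. At high AHA 3 members (Lama1, Lama5 and Fn1) were called when all 18 libraries were used, where calls over all genes went from 113 of 13438 to 341 of 13223. With 2 libraries in the soft, high AHA group but replicate 2 or replicate 3 set aside in place of replicate 1, 3 and 2 members were called, beside 384 and 257 of all genes. Whether the 3 soft minus stiff differences of a gene were equal was tested as an interaction on 2 degrees of freedom, and none of the 10 members was called in it, where 0.0298% of all tested genes were. At an unadjusted p under 0.05, 7 of 10 members passed in the interaction, against 902 of the 13438 genes tested, and DESeq2 also called none with 7 under 0.05. The lowest of these unadjusted p-values were those of Col4a2 (6.26e-04, adjusted p = 0.24), Hspg2 (0.00108, adjusted p = 0.267) and Col4a1 (0.00254, adjusted p = 0.376) in edgeR. Leaving out 1 library gave an interaction call for Hspg2 (soft, high AHA replicate 2, adjusted p = 0.00812, or stiff, high AHA replicate 1, 0.017) and for Col4a1 (stiff, low AHA replicate 2, 0.0496). With all kept libraries and no filter beyond 2 counts Hspg2 was called as well (adjusted p = 0.0308).

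**Figure D3:**
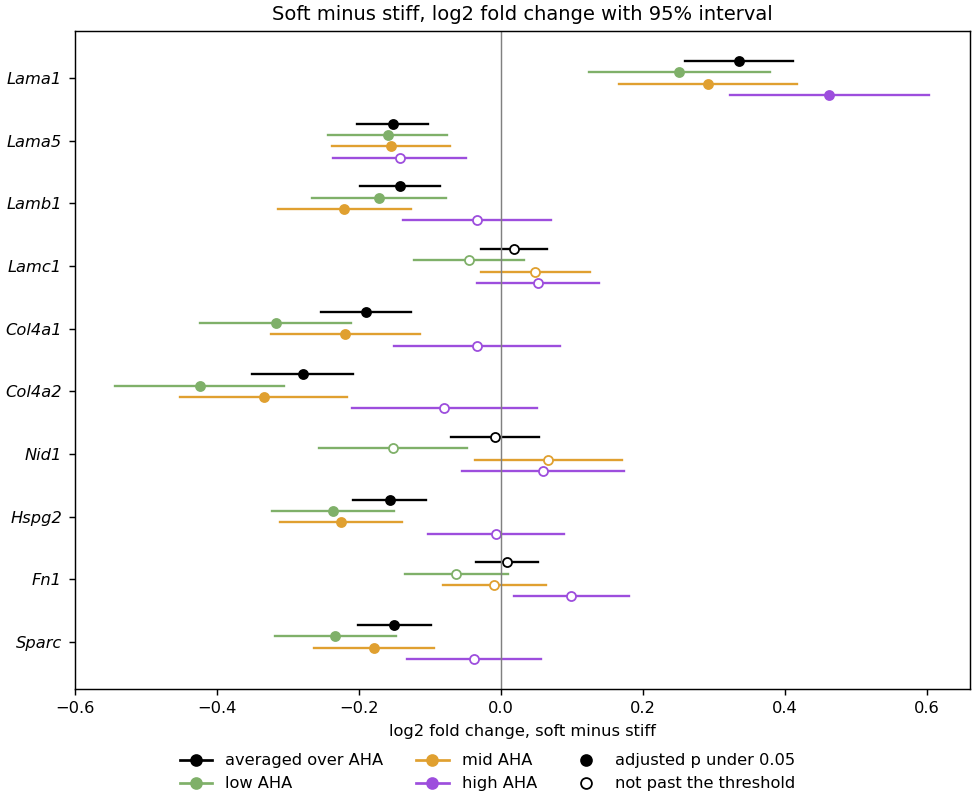
Log2 fold change of soft minus stiff (horizontal axis) for each gene, averaged over AHA (black) and at low (green), mid (orange) and high AHA (purple), with bars for the 95% interval and filled points where the adjusted p was under 0.05. Lama1 lies to the right of 0 in all 4 comparisons, and Lamb1, Col4a1, Col4a2, Hspg2 and Sparc lie near 0 at high AHA. The soft, high AHA group has 2 libraries kept. Over all alternatives the high AHA values ran from -0.13 to -0.014 for Col4a2 and from -0.081 to -0.0046 for Sparc. Those of Col4a1 ran from -0.060 to -0.00039, and those of Lamb1 and Hspg2 changed sign.

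The effect of AHA at one stiffness was tested with low AHA and mid AHA as the points of reference. On soft gels Col4a1 was the only member called between high and low AHA, and it was higher at high AHA by 0.28 ± 0.059 on the log2 scale (adjusted p = 0.007), where 0.216% of all tested genes were called higher. Both soft, high AHA libraries were above all 3 soft, low AHA libraries for Col4a1, and the library set aside was as well, a separation of the 2 against 3 libraries kept that 12.7% of all tested genes had. The call was lost without any 1 of the 3 soft, low AHA or the 2 remaining soft, high AHA libraries (adjusted p from 0.0504 to 0.128), with a log2 difference of 0.26 to 0.30 over all alternatives. Col4a2 (0.22 ± 0.067, adjusted p = 0.167), Nid1 (0.15 ± 0.058, adjusted p = 0.383) and Sparc (0.14 ± 0.048, adjusted p = 0.243) had unadjusted p-values under 0.05 on soft gels, as did 1144 of the 13438 genes tested, and were not called. No member was called in edgeR between high and mid AHA on soft gels (0.067% of all tested genes called) or between mid and low AHA (0.0% called), and none in DESeq2. At an unadjusted p under 0.05 there were 4 and 1 members in these comparisons, beside 915 and 820 of all 13438 genes.

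On stiff gels no member was called by edgeR between high and low AHA (0.00744% of all tested genes called), between high and mid AHA (0.00744%) or between mid and low AHA (0.0%), and DESeq2 called none. At an unadjusted p under 0.05 there were 5, 3 and 1 members, beside 812, 783 and 671 of all 13438 genes. Hspg2 had the log2 value farthest from 0 among members between high and low AHA, at -0.20 ± 0.042 (adjusted p = 0.112), and all 3 stiff, high AHA libraries were below all 3 stiff, low AHA libraries. Hspg2 was called in this comparison when all 18 libraries were fitted (-0.20, adjusted p = 0.034) and when stiff, high AHA replicate 1 was left out (-0.25, adjusted p = 1.41e-04), among 12 of 27 alternatives in all. The other single libraries whose removal gave this call were soft, low AHA replicate 2 (adjusted p = 0.0252), soft, mid AHA replicates 1 (0.0419) and 2 (0.0419) and soft, high AHA replicates 2 (0.00135) and 3 (0.00226). Fn1 stood at -0.14 ± 0.037 (adjusted p = 0.21, and 0.0498 without stiff, high AHA replicate 1), and its high AHA libraries were also below the low AHA libraries. Of all tested genes 5.53% had all stiff, high AHA libraries below all stiff, low AHA libraries. Col4a1 stood at -0.00032 ± 0.052 between high and low AHA on stiff gels, with a 95% interval of -0.10 to 0.10. Averaged over both stiffnesses, high against low AHA gave no call among the members (0.112% of all tested genes called), with 4 members and 1161 of all 13438 genes at an unadjusted p under 0.05 in edgeR and no call in DESeq2.

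**Figure D4:**
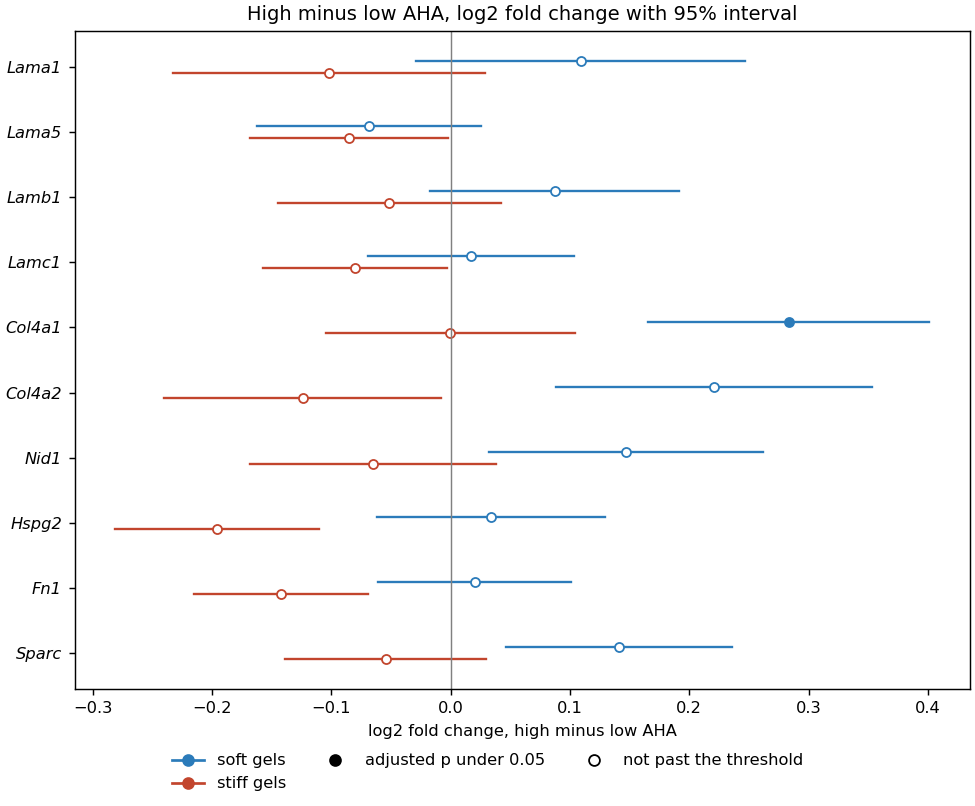
Log2 fold change of high minus low AHA (horizontal axis) for each gene on soft (blue) and stiff (red) gels, with bars for the 95% interval and filled points where the adjusted p was under 0.05. Col4a1 on soft gels is the only filled point, and 9 of the 10 soft values lie above 0 while all 10 stiff values lie below it. Without soft, high AHA replicate 3 the soft values of Lama1, Hspg2 and Fn1 fall below 0. Without stiff, low AHA replicate 1 the stiff value of Col4a1 rises above 0.

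Compared per kb of exon, to allow for gene length, the members differed widely in level. The length used was that of all annotated exons of a gene merged. It can exceed the length of the transcripts present, so the order also depends on the annotation. Over the 17 libraries kept, Sparc was highest at 119.9 ± 8.51 CPM per kb (SD), followed by Fn1 at 91.3 ± 4.14, Hspg2 at 87.5 ± 7.43 and Lamc1 at 74.4 ± 2.05 CPM per kb. Lama5 at 46.2 ± 3.13 and Col4a1 at 45.4 ± 4.69 CPM per kb came next, then Nid1 at 30.9 ± 1.47, Lamb1 at 30.4 ± 2.11 and Col4a2 at 29.2 ± 3.77 CPM per kb. Lama1 was lowest at 16.8 ± 2.37 CPM per kb, in every library below Col4a2. Neighbours whose order changed between libraries were Fn1 and Hspg2, Lama5 and Col4a1, Nid1 and Lamb1, and Lamb1 and Col4a2. In the means over all AHA concentrations, some of these orders differed between soft and stiff gels. The mean of Fn1 was above that of Hspg2 on soft gels (91.5 and 82.3 CPM per kb) and below it on stiff gels (91.1 and 92.1 CPM per kb), and that of Nid1 was above that of Lamb1 on soft gels (30.7 and 28.7 CPM per kb) and below it on stiff gels (31.1 and 31.9 CPM per kb). The order on stiff gels did not hold at each concentration. Fn1 was above Hspg2 at stiff, high AHA (85.9 and 84.7 CPM per kb), and Nid1 above Lamb1 at stiff, low AHA (32.5 and 32.3 CPM per kb). These orders were not tested. Among the laminin genes the γ1 chain was thus above the β1 chain, and the α5 chain above the α1 chain, in all 17 libraries. The members stood between percentiles 76.5 and 98.2 of the levels per kb of the genes tested.

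The other genes of matrix assembly were described from 5 lists. Of 26 other basement membrane genes, 19 passed the filter, 6 were called lower on soft gels in the averaged comparison and none was called higher, with a median log2 difference of -0.16. Pxdn, the peroxidase that crosslinks collagen IV, had 102 ± 8.80 CPM on soft and 123 ± 5.57 CPM on stiff gels (-0.26 ± 0.041, adjusted p = 2.85e-07). Agrn, the proteoglycan agrin (-0.13 ± 0.027), Tinagl1 (-0.37 ± 0.083), Col4a5 (-0.46 ± 0.14) and Lama4 (-0.52 ± 0.18) were also among those called lower. Of these, Lama4 was low, at 4.73 ± 1.57 CPM on soft and 6.72 ± 1.14 CPM on stiff gels, and close to the threshold (edgeR adjusted p = 0.0476). Col4a5 had 7.70 ± 1.27 and 10.8 ± 2.64 CPM. Of 28 interstitial matrix genes, 24 passed the filter, 3 were called lower and 1 higher, with a median of -0.19. Thbs1 (thrombospondin-1) had 308 ± 35.6 CPM on soft and 448 ± 25.7 CPM on stiff gels (-0.52 ± 0.050), Col1a1 stood at -0.49 ± 0.085 and Col5a1 at -0.22 ± 0.043 on the log2 scale, and Tgfbi was the gene called higher (0.34 ± 0.12, adjusted p = 0.0424).

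Among enzymes and chaperones that process collagen and other matrix proteins, all 24 passed the filter, 8 were called lower on soft gels and none higher, with a median of -0.12. Serpinh1, the collagen chaperone Hsp47, had 110.2 ± 14.1 CPM on soft and 143 ± 8.46 CPM on stiff gels (-0.36 ± 0.041, adjusted p = 2.86e-12). The crosslinking enzyme Loxl2 stood at -0.38 ± 0.089, P3h4 at -0.31 ± 0.089, Pcolce, which aids the trimming of procollagen, at -0.23 ± 0.059, the lysyl hydroxylase Plod3 at -0.17 ± 0.053 and P4hb, a subunit of prolyl hydroxylase, at -0.11 ± 0.022 on the log2 scale. Pxdn is in this list as well as in the first. Of 22 matrix proteases and inhibitors, 20 passed the filter, 5 were called lower and none higher, with a median of -0.12. Among these were the urokinase gene Plau (-0.74 ± 0.15), its receptor Plaur (-0.29 ± 0.061), Adamts1 (-0.41 ± 0.10) and Adam17 (-0.17 ± 0.052). Of 21 matrix receptors, 20 passed the filter, 9 were called lower and 1 higher, with a median of -0.16. Itga3, a subunit of a laminin-binding integrin, had 343 ± 16.9 CPM on soft and 512 ± 25.8 CPM on stiff gels (-0.57 ± 0.027, adjusted p = 3.10e-43). The laminin-binding integrin subunits Itga6 (-0.15 ± 0.032) and Itgb4 (-0.33 ± 0.066), dystroglycan (Dag1, -0.13 ± 0.027) and Cd44 (-0.31 ± 0.096) were lower, and the syndecan Sdc4 was higher (0.14 ± 0.044, adjusted p = 0.0285). At high AHA alone 3 receptor genes were called lower and no gene of the other 4 lists was called in either direction, with list medians of -0.12, -0.010, -0.074 and -0.085 in the order given. Over all tested genes 0.432% were called lower and 0.409% higher at high AHA, with a median of -0.0023. The averaged medians of the 5 lists compare with 0.0011 over all genes tested, and the counts with 4.82% of all tested genes called lower and 3.77% called higher.

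**Figure D5:**
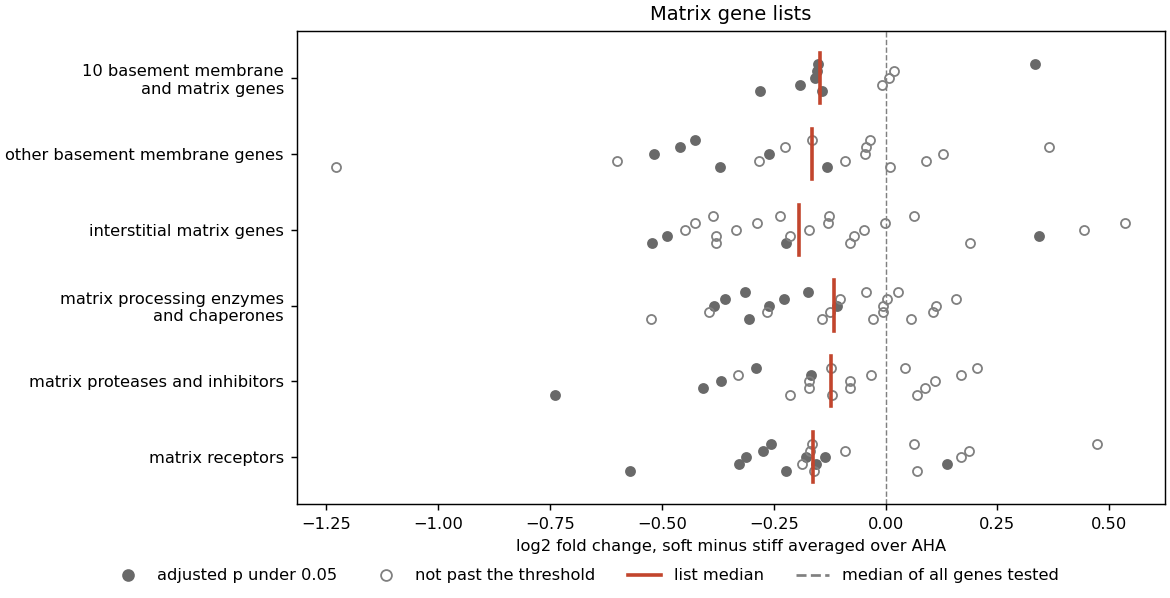
Log2 fold change of soft minus stiff averaged over AHA (horizontal axis) for the 10 genes described here and the tested genes of 5 matrix lists, with filled points where the adjusted p was under 0.05, a red bar for the median of a list and a dashed line for the median of all genes tested. The medians of the 6 rows lie between -0.19 and -0.12.

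In cultures of this kind, a difference in the RNA of a sample cannot tell fewer cells of a type from less RNA per cell. Markers of other cell types were therefore read in the same libraries. Primitive and parietal endoderm, which make much basement membrane in the embryo, were read from 15 markers, of which 13 passed the filter, none was called higher and 1, Lrp2, was called lower on soft gels. Their summed level was 359 to 456 CPM on soft and 455 to 578 CPM on stiff gels, most of it from Lrp2, which had 360.3 ± 31.0 CPM on soft and 463 ± 36.7 CPM on stiff gels. Gata4 (5.80 ± 1.47 and 5.13 ± 1.14 CPM on soft and stiff gels), Gata6 (3.75 ± 0.646 and 3.04 ± 0.474 CPM) and Sox17 (1.97 ± 0.735 and 1.42 ± 0.632 CPM) were low and not called, and Afp was under 1 CPM in every library kept. Of 11 fibroblast markers 7 passed the filter and 1, Col1a1, was called, lower on soft gels, while Lum and Dcn were under 1 CPM in every library kept and Prrx1 and Twist2 had means under 1 CPM on both kinds of gel. The summed fibroblast markers ranged over 125 to 207 CPM on soft and 179 to 252 CPM on stiff gels. Of 6 trophectoderm markers 5 passed the filter and 2, Hand1 (-0.30 ± 0.068) and Krt7 (-0.25 ± 0.068), were called lower on soft gels, with sums of 89.7 to 120.1 and 114 to 133 CPM. Of the 10 stem cell markers 6 were called higher and 1 lower on soft gels. All these marker counts stand beside 3.77% of all tested genes called higher and 4.82% called lower. Whether these shifts take part in the differences of the members was not tested. No marker was at 0 in all libraries.

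Over the 17 libraries kept, the genes whose log2 CPM most resembled that of a member were found among 9215 other genes with a mean of at least 10 CPM, and the Pearson r is given as a description, since these libraries share the same groups. For Sparc they were Nes (r = 0.926), Folr1 (0.925) and Actn1 (0.901), and each of these was called lower on soft gels. For Col4a1 they included Runx1 (0.899) and Plk2 (0.884), next to 0.875 for Col4a2. For Fn1 they were Srrm2 (0.851), Trrap (0.777) and Dync1h1 (0.775), and for Lamc1 they were Smpd4 (0.790), Cnot3 (0.749) and Dennd1a (0.746). Within the members Sparc had r values of 0.814 with Lamb1, 0.830 with Col4a2, 0.736 with Col4a1 and -0.582 with Lama1.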

How the data were processed

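Per the labels and the study's methods, the authors trimmed reads with Trim Galore 0.4.4, aligned them with GSNAP to GRCm38/mm10 and obtained gene counts with HTSeq, which were deposited without normalisation. Symbols, biotypes and coordinates came from GENCODE M21. The 5 HTSeq summary lines, 61.5 to 64.0% of each column, were left out.

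Members and lists were chosen with earlier results of these data known. Groups followed the labels. A library was set aside when its ERCC share exceeded 1.5 times the median. Protein-coding genes past filterByExpr (minimum count 10) were fitted with edgeR 4.0.16 in R 4.3.3 (TMM, robust quasi-likelihood, 1 coefficient per group). Benjamini-Hochberg adjustment ran over all tested genes of a contrast. The common dispersion was 0.00286, a biological coefficient of variation of 5.35%. Standard errors came from the F statistic. The fit was also run on simulated counts with known changes, and the outcome of that run is not reported here. Named genes were the 10 members, of each list the 3 lowest and 3 highest log2 values among those called, and the 3 most similar genes of 4 members, of which some are not reported here. Alternatives were RLE and upper-quartile scaling, DESeq2 1.42.0, no filter beyond 2 counts, all annotated genes, other libraries set aside or none, a non-robust fit, only the groups compared, each library left out and, for ratios, medians.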

Additional observations from a re-analysis of the deposited data

Results flagged for a closer look

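The values of Sparc differed in opposite directions with AHA on the 2 kinds of gel, although neither difference was called. Both soft, high AHA libraries were above the 3 soft, low AHA libraries (log2 difference 0.14), and the 3 stiff, high AHA libraries were below the 3 stiff, low AHA libraries (-0.055). Sparc was the only member with this separation in opposite directions. When it was flagged, its unadjusted interaction p given below was listed against a threshold of 0.05. Of the 10 members 9 had a value above 0 on soft and below 0 on stiff gels, among them Col4a2 (0.22 and -0.12) and Nid1 (0.15 and -0.065). Some of these signs hung on 1 library. Without soft, high AHA replicate 3 the soft values of Lama1 (-0.042), Hspg2 (-0.061) and Fn1 (-0.034) were below 0. Without stiff, low AHA replicate 1 the stiff value of Col4a1 was above 0 (0.050). The share of all tested genes with such signs was not counted. The difference between the effects of AHA on soft and on stiff gels was not tested on its own. The interaction over all 3 AHA concentrations gave Sparc an unadjusted p of 0.00925 and an adjusted p of 0.595 in edgeR, and Col4a2 (6.26e-04), Hspg2 (0.00108), Col4a1 (0.00254) and Nid1 (0.0052) had lower unadjusted p-values. Separation of this kind was common over all tested genes, with 12.7% all higher at high AHA on soft gels and 5.53% all lower at high AHA on stiff gels. No library stood out from the others of its stiffness for any member by Dixon's test in 20 groups of 8 or 9 libraries. These groups pooled the 3 AHA concentrations and left out the library set aside, so replicates of a single concentration were not compared.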

How the results depend on the processing

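All 7 members called in the averaged comparison were called in each of 26 alternatives, and no scaling moved the median of all genes by more than 0.1. Counts of members called moved elsewhere. At high AHA the count went from 1 to 3 with all 18 libraries or with soft, high AHA replicate 2 set aside in place of replicate 1, to 2 with replicate 3 set aside in its place, and to 0 or 1 with single libraries left out. At low AHA 5 to 7 and at mid AHA 4 to 7 members were called with a library left out. In the AHA comparisons on soft gels 2 members were called, in place of 1, with replicate 2 set aside, and 0 to 1 with a library left out. On stiff gels the count of 0 became 1 with no filter beyond 2 counts, with all 18 libraries, with either other library set aside, with a non-robust fit and with only the groups compared, and lay between 0 and 2 with a library left out. High against low AHA averaged over stiffness gave 1 call in place of 0 with no filter, and 0 to 1 with a library left out (1 for Hspg2 without soft, high AHA replicate 3 and for Col4a1 without stiff, low AHA replicate 1). The interaction gave 1 call with no filter, 2 with soft, high AHA replicate 2 set aside, and 0 to 1 with a library left out. Col4a1 was also called between high and mid AHA on soft gels without soft, mid AHA replicate 3, and Hspg2 between high and mid AHA on stiff gels without stiff, high AHA replicate 1, with no filter beyond 2 counts and with only the groups compared. The cause of these shifts was not tested. The small averaged differences of Fn1 (-0.011 to 0.025) and Nid1 (-0.018 to 0.0039) changed sign when single libraries were left out. The ratio of Col4a2 to Col4a1 missed the threshold with medians (log2 difference -0.11) and ranged from -0.10 to -0.070 with a library left out, where 11 of 17 such comparisons missed it, and the other 3 ratios kept their direction and call in all 19 alternatives. No paired analysis was possible because the labels give no replicate numbers, and the numbers used here follow accession order. The fit covered only the 13438 protein-coding genes past the filter on low counts.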

Other observations

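Summed over the 10 genes, the 8 soft libraries had 4958 ± 178 CPM (SD) and the 9 stiff libraries 5272 ± 211 CPM, and the ranges of 4728 to 5279 and 4918 to 5562 CPM overlapped. The sum was highest in the stiff, low AHA libraries (5450.2 ± 97.2 CPM, n = 3) and lowest in the soft, low AHA libraries (4883 ± 101 CPM, n = 3), and at high AHA it was 5098 ± 256 CPM on soft (n = 2) and 5034 ± 166 CPM on stiff gels (n = 3).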
